A study of Citrus sinensis with 10 samples.

Results

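In sweet orange fruit (Citrus sinensis), 216 of 5856 cDNA clones on an array were at least 2-fold higher in the mutant Hong Anliu than in its wild type Anliu at both 150 and 190 days after flowering. They were chosen by that measured ratio alone: a log2 ratio of mutant over wild type of at least 1 on both arrays of 150 days and on both arrays of 190 days. The ratios of those 2 time points are therefore given below as a description with no test. The ratios at 120, 170 and 220 days did not enter the choice. The level averaged over both genotypes was not a criterion either, though it shares its arrays of 150 and 190 days with the choice.

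Hong Anliu is a bud mutant, a line propagated from a changed shoot, and differs from the Anliu orange it arose on by red flesh. Fruit of Hong Anliu and of Anliu was collected at 120, 150, 170, 190 and 220 days. Each time point has 2 arrays, with the mutant in Cy5 on the first and in Cy3 on the second. Their titles name the same pair of samples, and they were taken throughout to share the same pair of extracts. The labels do not say which fruit tissue was taken, how many trees or fruits an extract represents, or any treatment.

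The red colour of such fruit comes from lycopene, a carotenoid that plastids make along the pathway to beta-carotene and the xanthophylls. In an orange the last months on the tree bring the change of colour, a fall in organic acid and a gain of sugar, and many transcripts rise or fall over this period in any genotype. A clone on a cDNA array is a copied stretch of a transcript, and several clones of 1 library can come from the same transcript. The sources used here pair no clone with a gene: 0 of the clone names were found among the 29331 genes of the sweet orange table. No gene name or role is therefore given, and each clone is called by its plate, plate row and well column, so that 9.C.10 is well C10 of plate 9.

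Each of the 5856 clones was printed 3 times, among 19152 spots in 48 printing blocks. Of the 216 clones, 213 had mean signals above the 95th percentile of the blank spots in both genotypes on all 10 arrays. So did 4875 of all 5856 clones. Their median intensity, depending on the array, lay between 416.5 and 10260 for the mutant and between 983.5 and 6988 for the wild type, and the 95th percentile of the blanks lay between 4 and 822. The brightest of them averaged 32478, under the lowest top intensity of any array, 41064, so no clone of the list sat at the top of the scale. The normalization puts the middle clone of an array near 0, so a ratio says how a clone stands against that middle. In RNA of fruit, fewer cells of a kind and less RNA per cell cannot be told apart.

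At 150 days the median log2 ratio of the 216 clones was 2.13 on the first array and 2.36 on the second, and at 190 days it was 1.75 and 1.97. Averaged over the 2 arrays, the ratio ran from 1.04 to 3.18 at 150 days, with a median of 2.24, and from 1.03 to 4.37 at 190 days, with a median of 1.88. The SD between dye-swapped arrays was 0.28 at 150 days and 0.18 at 190 days, both below the SD over the clones, 0.44 and 0.36. The list holds 51.4% of the 420 clones that were 2-fold higher at 150 days (7.17% of all clones) and 59.3% of the 364 that were so at 190 days (6.22% of all clones). As the choice used these arrays, nothing is read from these shares. In the authors' deposited table of lowess ratios, on a linear scale, the median ratio of the same clones was 4.75 at 150 days and 3.44 at 190 days, with 209 and 203 of the 216 at 2 or above.

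**Figure D1:**
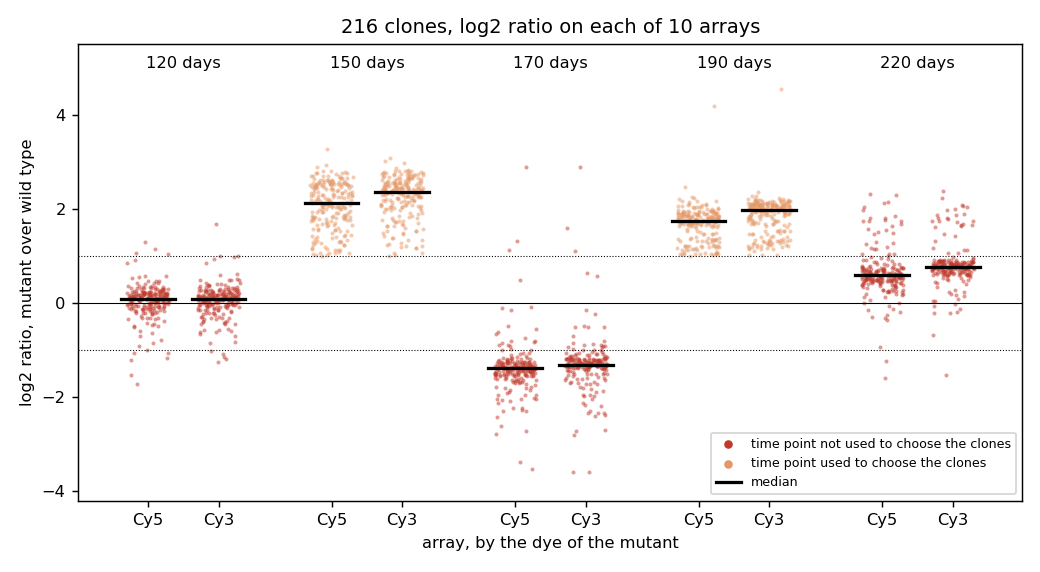
Log2 ratio of mutant over wild type (vertical axis) for each of the 216 clones on each of the 10 arrays (horizontal axis), with the mutant in Cy5 left and in Cy3 right at each time point. Points are clones, thick bars are medians and dotted lines mark a 2-fold difference. The medians lie at 2.13 and 2.36 at 150 days and at -1.39 and -1.31 at 170 days, and both arrays of a time point give the same picture.

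The highest mean over 150 and 190 days was that of clone 9.C.10. Its log2 ratio was 3.28 and 3.08 at 150 days and 4.18 and 4.55 at 190 days, and also 2.89 and 2.90 at 170 days. Its mean spot intensity at 190 days was 6525 and 6079 in the mutant, against 444 and 322 in the wild type. Both arrays thus put the mutant far above the wild type at these 3 time points. The next was clone 50.B.11, at 2.70 and 2.81 at 150 days and 2.16 and 2.36 at 190 days. Its sign at 170 days was the opposite, with -1.47 and -1.37. Clones 45.A.1, 60.G.1, 46.H.7 and 46.G.9 followed, with mean ratios between 2.77 and 2.90 at 150 days and between 2.01 and 2.23 at 190 days, and all 4 were below -1.3 on both arrays of 170 days.

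At the limit of the choice, clones inside and outside lay close together. By the lowest of the 4 ratios that chose them, the clones just inside the limit of 1 were 10.E.2 (1.001), 22.G.7 (1.007) and 26.D.6 (1.008). Just outside were 7.F.2 (0.995), 26.F.4 (0.989) and 14.B.3 (0.987), which miss the list by less than the SD between dye-swapped arrays. Under other normalizations, with an offset or with low signals left out, between 174 and 216 clones met the same rule. Between 174 and 216 of the present ones were among them. With 1 array of each pair left out the rule is looser, as a single array of each day has to pass. It then gave 272 clones without the first arrays and 228 without the second, and the 216 are among them by construction.

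At 170 days, which the choice did not use, 211 of the 216 clones were lower in the mutant on both arrays and 4 were higher on both. Over all 5856 clones these counts were 2626 and 2753. The median log2 ratio was -1.39 on the first array and -1.31 on the second, and the mean of both arrays had a median of -1.34 with quartiles of -1.47 and -1.25. At least 2-fold lower on both arrays were 189 of the 216 clones, 87.5%, against 17% of all clones. At least 2-fold higher were 3 of the 216, 1.39%, against 7.94% of all clones. The quartiles were close: the interquartile range of the list at 170 days was 0.22, against 1.08 over all clones. The tails were wide, with values from -3.56 to 2.89 and an SD over the clones of 0.59, against 0.98 over all clones. The pair of arrays at 170 days was taken to share 1 pair of extracts, so this time point was given no test.

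The same clones were thus at opposite sides at 150 and 170 days and again at 170 and 190 days. The dye of each genotype at 170 days is the same in the labels and in the headers of the array files. With the sign of 170 days turned, 189 clones would be 2-fold higher and 3 lower there, with a median of 1.34. In the authors' deposited table the median ratio at 170 days was 0.386, with 181 of the 216 clones at 0.5 or below and 2 at 2 or above.

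Clones picked at only 1 of the 2 time points were set beside the list at 170 days. Of the 204 clones that were 2-fold higher at 150 days but not at 190 days, 135 (66.2%) were 2-fold lower at 170 days, with a median ratio of -1.59. Of the 148 clones that were 2-fold higher at 190 days but not at 150 days, 21 (14.2%) were lower at 170 days, with a median of -0.35. Over all clones 17% were 2-fold lower at 170 days. Whether these shares differ was not tested. In all, 324 clones were higher at 150 and lower at 170 days, and 189 of them belong to the list, which is 58.3% of the 324 and 87.5% of the list. The mirror list holds the 127 clones that were 2-fold lower in the mutant at 150 and 190 days. It did not show a mirrored shift at 170 days, where its median was 0.08, against 0.03 over all clones. Of its clones 7 were 2-fold higher there (5.51%, against 7.94% of all clones) and 19 lower (14.96%, against 17% of all clones). Both shares lay near those of all clones. Whether the 2 lists differ was not tested.

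At 120 days the 216 clones were near equal in both genotypes. The median log2 ratio was 0.09 on each array, with a range of the 2-array mean from -1.36 to 1.49. A single clone was 2-fold higher on both arrays, 3.A.4 (1.29 and 1.68), which is 0.463% of the list against 3.64% of all clones. A single clone was 2-fold lower, 3.A.5 (-1.52 and -1.19), against 5.19% of all clones. Signs were positive on both arrays for 117 clones and negative on both for 51, against 2553 and 2523 of all 5856 clones. The interquartile range at 120 days was 0.27, against 0.71 over all clones. The median moved with the centre of the array: it was 0.01 with median centring, and -1.92 with arrays centred on Y1 to Y4, a set of control spots. That centre put the median of all clones at -2.02, with 212 of the 216 clones (98.1%) and 94.8% of all clones 2-fold lower.

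At 220 days most of the 216 clones were again above the wild type, by less than 2-fold. The median log2 ratio was 0.59 on the first array and 0.77 on the second. The ratio was above 0 on both arrays for 203 clones and below 0 on both for 7, against 2242 and 2575 of all 5856 clones. At least 2-fold higher were 24 clones, 11.1%, against 4.37% of all clones, and 1 was 2-fold lower, 0.463%, against 2.19% of all clones. At a limit of 1.5-fold 105 were higher (48.6%, against 15.5% of all clones). The quartiles were 0.57 and 0.78, and the 2-array mean ran from -1.38 to 2.27. The SD over the clones was 0.47, against an SD between the dye-swapped arrays of 0.24. The mirror list had a median of 0.05 at 220 days, with wide quartiles of -1.48 and 0.76. Of its 127 clones 35 were 2-fold lower (27.6%, against 2.19% of all clones) and 0 higher (against 4.37%).

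**Figure D2:**
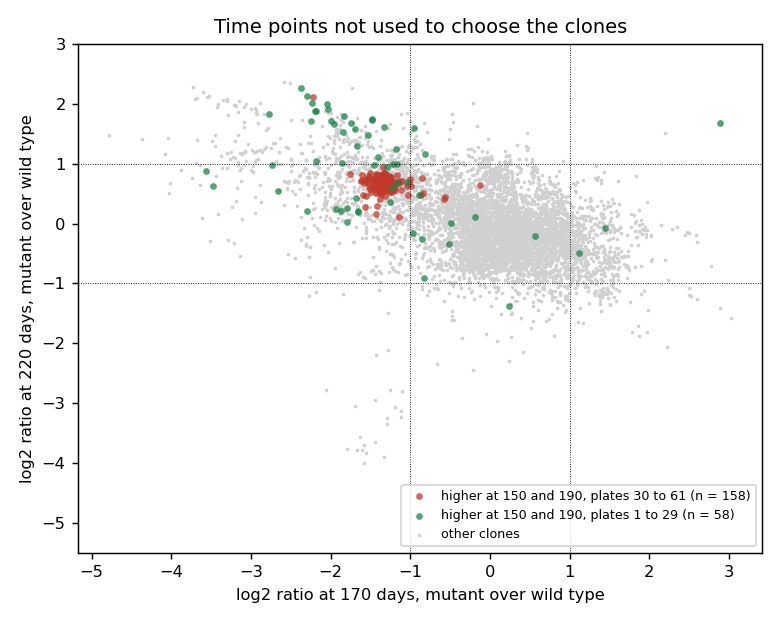
Log2 ratio of mutant over wild type at 170 days (horizontal axis) against 220 days (vertical axis), each the mean of 2 arrays, for the 216 clones by plate range and for all other clones in grey. Dotted lines mark 2-fold differences. The 158 clones of plates 30 to 61 lie close together, while the 58 of plates 1 to 29 spread from -3.56 to 2.89 along the horizontal axis.

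By their 2-fold calls at 170 and 220 days, which did not choose them, the 216 clones were set in 4 patterns of unequal size, leaving the 2 calls at 120 days aside. The common one, with 167 clones from 49 plates, was 2-fold lower at 170 days and not 2-fold higher at 220 days. Its median log2 ratios over the 5 time points were 0.12, 2.30, -1.35, 1.92 and 0.68. Clone 50.B.11 is of this kind, with 0.19 and 0.33 at 120 days and 0.49 and 0.66 at 220 days.

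A second pattern of 22 clones from 13 plates swung more widely: 2-fold lower at 170 days and 2-fold higher at 220 days. Its median ratios were -0.41, 2.17, -1.98, 1.33 and 1.74. Clone 27.A.12 had the highest ratio of the list at 220 days, 2.31 and 2.24, with -2.41 and -2.33 at 170 days and -0.85 and -1.09 at 120 days. Clones 7.B.3 (2.28 and 1.98) and 61.A.10 (2.14 and 2.09) followed at 220 days. All 3 were lower in the mutant at 120 and 170 days and higher at the other time points. Clone 3.G.2 was of this kind too, with -2.73 and -2.81 at 170 days and 1.79 and 1.87 at 220 days.

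A further pattern of 24 clones was neither 2-fold higher nor lower at 170 days on both arrays, with median ratios of 0.06, 1.69, -0.85, 1.54 and 0.47. Clone 3.A.4 stood apart in it. Besides its high ratio at 120 days it had the lowest ratio of the list at 220 days, -1.24 and -1.53, and arrays of opposite sign at 170 days, -0.09 and 0.57. Clone 26.E.1 was next lowest at 220 days, but its arrays there gave -1.60 and -0.22.

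The last pattern held the 3 clones that were 2-fold higher at 170 days, 9.C.10, 10.E.2 (1.31 and 1.58) and 17.B.3 (1.13 and 1.11). At 220 days 10.E.2 and 17.B.3 were at or below the wild type, with -0.14 and -0.02 for 10.E.2 and -0.29 and -0.69 for 17.B.3. Clone 9.C.10 was alone among the 216 in having the same sign on all 10 arrays. Its lowest values were 0.56 and 0.84 at 120 days, and at 220 days its arrays stood far apart, at 0.97 and 2.39. The lowest ratios at 170 days were those of 14.A.1 (-3.52 and -3.59) and 21.A.9 (-3.37 and -3.58), both 2-fold higher at 150 and 190 days like every clone of the list.

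**Figure D3:**
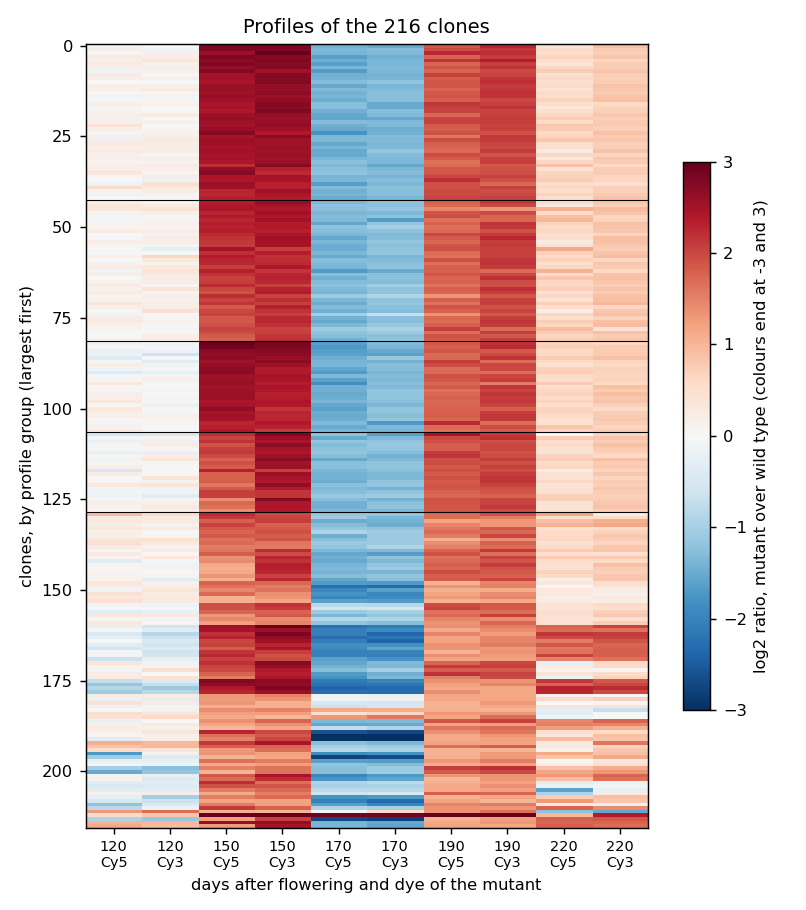
Log2 ratio of mutant over wild type in colour (red higher, blue lower) for the 216 clones (one line each) on the 10 arrays (columns, by days after flowering and dye of the mutant), ordered by profile group with the largest group on top. Black lines end the 4 largest groups, of 43, 39, 25 and 22 clones, and red at 150 and 190 days with blue at 170 days runs through almost all groups.

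Many of these profiles were near copies of each other. On all 10 arrays, 106 of the 216 clones (49.1%) lay within 0.5 (log2) of the median profile of the list. In the mirror list 24 of 127 (18.9%) lay as close to its own median profile. A correlation above 0.95 with the median profile over the 10 arrays was found for 171 clones of the list and for 43 others. These limits were set with the values known, the ratios of 150 and 190 days that enter them chose the list, and the counts carry no test.

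Grouped so that no pair within a group differed by over 1 (log2) on any array, the 216 clones formed 31 groups. The largest held 43 clones from 23 plates, with median ratios of 0.15, 2.59, -1.37, 1.98 and 0.67 and an SD over clones of at most 0.11 at any time point. The second held 39 clones from 22 plates (0.14, 2.23, -1.29, 1.91 and 0.71). The next held 25 clones, and 7 clones stood alone. Close neighbours as such were common on the array: 186 clones of the list (86.1%) had another clone of the list within 0.5 on all 10 arrays, and 93.8% of all clones had some other clone as near. The files do not show whether clones of a group come from 1 transcript.

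The plates held unequal shares of the list. Plates 30 to 61 gave 158 of 3072 clones (5.14%) and plates 1 to 29 gave 58 of 2784 (2.08%). The clones came from 54 of the 61 plates, with at most 10 on a plate (plate 51), and from 47 of the 48 printing blocks, with at most 12 in a block. The SD over clones at 170 days was 0.20 among those of plates 30 to 61 and 1.09 among those of plates 1 to 29. All 106 clones close to the median profile came from plates 30 to 61. That profile is a median over a list mostly from those plates, so this count is partly built in. At 150 and 190 days the medians were 2.34 and 1.92 on plates 30 to 61, and 1.74 and 1.29 on plates 1 to 29. Of the 22 clones that were lower at 170 and higher at 220 days, 21 came from plates 1 to 29. The split of the plates was chosen with the values known. What the plate ranges are is not given in the sources used here, and their part in these patterns was not tested.

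Across the 216 clones the ratios at 150 and 190 days had Pearson's r = 0.56, against 0.66 over all clones, and those at 170 and 220 days had r = -0.40, against -0.51 over all clones. The ratios at 170 and 190 days had r = 0.33 within the list and r = -0.27 over all clones. Clone 9.C.10 lies far from the rest in both, at 2.89 and 4.37 against medians of -1.34 and 1.88 (SD over clones 0.59 and 0.36). It weighs heavily on the r of 0.33, and the value without it is not given here. The clones share their arrays and in many cases their profile, so these correlations describe the list and carry no test.

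The level of each genotype was followed next, as log2 intensity made comparable over the 20 channels by quantile normalization and set relative to each clone's own mean. In the mutant the median level of the 216 clones stood at -1.38, 0.84, -0.59, 1.38 and 1.46 from the earliest to the latest collection. The wild-type medians were -1.44, -1.35, 0.68, -0.42 and 0.77. Both genotypes thus began low and ended high, with a dip at 170 days in the mutant and at 190 days in the wild type. Over all clones the medians stayed between -0.08 and 0.09. The 2-fold excess of the mutant at 150 days stands beside a wild-type level still near that of 120 days, and at 170 days the wild type was above the mutant.

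**Figure D4:**
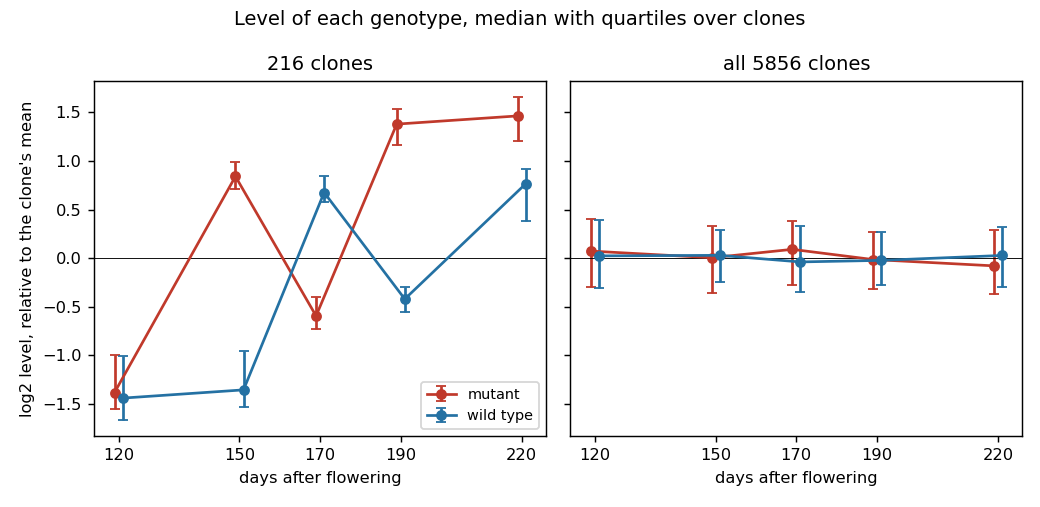
Median log2 level of the mutant (red) and the wild type (blue), relative to each clone's own mean, against days after flowering, for the 216 clones (left) and all 5856 clones (right). Bars span the quartiles over the clones, not an error over fruit. The mutant median ends at 1.46 and the wild-type median at 0.77 for the 216 clones, while all clones stay near 0.

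Between 120 and 220 days the mutant gained a median of 2.86 (log2) and the wild type 2.22. The gain was 2-fold on both arrays for 196 clones (90.7%) in the mutant, against 13.2% of all clones. In the wild type it was 2-fold for 164 (75.9%), against 8.44% of all clones. The gain was then split at 170 days. From 120 to 170 days the mutant gained a median of 0.76, with 21 clones 2-fold up (9.72%, against 2.66% of all clones). The wild type gained 2.13, with 183 up (84.7%, against 11.8%). From 170 to 220 days the mutant gained 2.04, with 191 clones up (88.4%, against 13.5% of all clones). The wild type gained 0.08 there, with 1 up (0.463%, against 7.38%) and 9 down (4.17%, against 9.10%). These gains use no array of 150 or 190 days and rest on 1 extract per genotype and time point. Those to and from 170 days would change genotype if the sign there were turned.

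A level that climbed at every step was found in the mutant for 1 of the 216 clones (0.463%, against 1.06% of all clones) and in the wild type for 0 (against 0.854%). With the genotypes exchanged at 170 days, 37 would climb at every step in the mutant (17.1%, against 1.76% of all clones) and 67 in the wild type (31.0%, against 2.24%). These counts include the levels at 150 and 190 days that entered the choice.

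Clone 60.G.1 had the largest gain in mean level. Its mean spot intensity in the mutant was 245 and 311 at 120 days, 717 and 1647 at 170 days and 10695 and 8457 at 220 days. The wild-type channel gave 1290 and 611 at 120 days, 2816 and 6669 at 170 days and 3677 and 3190 at 220 days. These intensities are not normalized between dyes or arrays. On the normalized scale its mutant level was -1.82, 0.97, -0.53, 1.45 and 1.95 over the 5 time points and its wild-type level -1.66, -1.90, 0.77, -0.54 and 1.32. It gained 3.37 (log2) in the mean of both genotypes between 120 and 220 days, ahead of 46.G.9 with 3.33 and 31.G.5 with 3.29.

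The smallest changes were those of 3.A.4, with -0.12, of 16.G.3, with 0.09, and of 26.E.1, with 0.32. In 3.A.4 the mutant level was 1.03 at 120 days and -0.49 at 220 days, opposite in course to nearly all others of the list.

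Tested in limma over all clones with 1 value per time point, the mean level of both genotypes rose with time in 148 of the 216 clones (adjusted p under 0.05), and fell in 0. That is 68.5% of the list, against 2.85% of the 5852 clones tested that rose and 0.991% that fell. The median slope of the list was 2.38 per 100 days (log2), with a range from -0.32 to 3.23, and 214 slopes were above 0. Under an unadjusted p of 0.05 in limma 198 rose (91.7%, against 10.7% of all clones) and 0 fell (against 12.4%). The median slope over all clones was -0.08. The steepest slope, that of 60.G.1, was 3.23 (SE 0.30, n = 5 time points, adjusted p = 0.00726 in limma). Clones 46.H.11 (slope 3.14, SE 0.28) and 60.G.5 (slope 3.08, SE 0.28) had the same adjusted p in limma, the smallest of the fit.

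The rising calls of the array were for the most part these clones: of 167 rising clones, 148 (88.6%) belong to the list. The median slope was 2.62 for the 148, against 1.73 for the other 19, and 5 of the 19 were 2-fold higher in the mutant at 150 days. Within the list the calls were uneven. They covered 135 of the 167 clones of the common pattern and 6 of the 22 with the wider swing. They covered 7 of the 24 that were not 2-fold different at 170 days and 0 of the 3 that were higher there. By plates they covered 140 of 158 (88.6%) on plates 30 to 61 and 8 of 58 (13.8%) on plates 1 to 29.

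**Figure D5:**
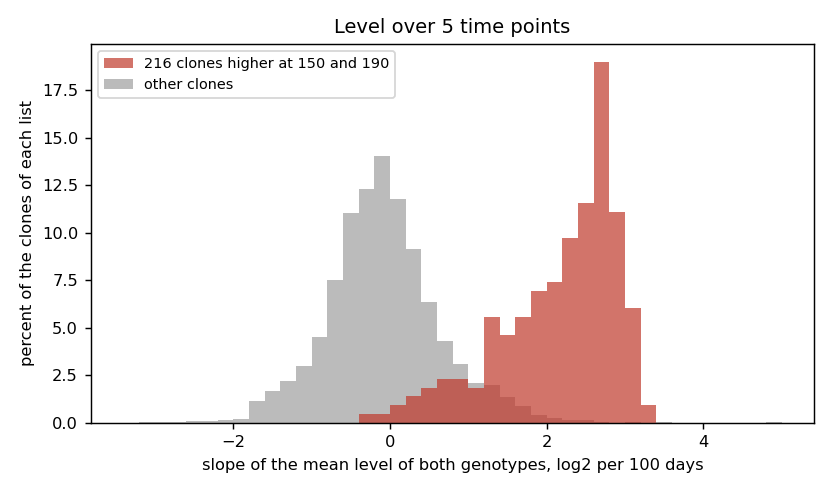
Slope on time of the log2 level averaged over the genotypes (horizontal axis, log2 per 100 days) as a percentage of the clones of each list (vertical axis), for the 216 clones in red and all other clones in grey. The median of the 216 clones is 2.38, and that of all clones is -0.08.

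On the 3 time points that the choice did not use, 120, 170 and 220 days, the mean level rose in 175 of the 216 clones in limma (81% of the list, against 5.84% of all clones tested). The mutant level alone rose in 159 there (73.6%, against 4.49% of all clones tested). With 120 days or with 220 days left out, 0 clones of the list passed in limma, and 0 of all clones were called rising. Under an unadjusted p of 0.05 in limma 156 and 186 of the list then rose (against 6.82% and 9.45% of all clones). The fit over 5 collections has 3 residual degrees of freedom. The slope over 3 time points, which gave the 175 and 159 calls, leaves fewer. Array and development cannot be told apart in either fit.

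The levels of single genotypes over all 5 time points include those at 150 and 190 days, whose ratio chose the clones, so their slopes are partly set by the choice. In the mutant 0 clones rose and 0 fell in limma (0% of 5853 tested). With levels set against the control spots Y1 to Y4, 213 of the 216 rose in the mutant in limma, against 70.6% of all clones. Under an unadjusted p of 0.05 in limma, with quantile-normalized levels, 154 rose (71.3%, against 6.68% of all clones) and 1 fell (against 6.75%). The median slope in the mutant was 2.69 per 100 days, and 213 of the slopes were above 0. The smallest adjusted p of the list was 0.317 in limma, for clone 50.F.11. In the wild type 0 rose and 0 fell (0% of 5854 tested), with 146 rising (67.6%, against 6.08% of all clones) and 0 falling (against 8.05%) under an unadjusted p of 0.05 in limma. The median slope there was 2.19, and 216 slopes were above 0, or 161 with levels set against Y1 to Y4. The smallest adjusted p of the list was 0.155 in limma, for clone 45.H.3. Whether the slopes of the genotypes differ was not tested.

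A mean log2 ratio different from 0 over 120, 170 and 220 days was found for 0 of the 216 clones in limma, and for 0% of the 5852 clones tested. Under an unadjusted p of 0.05 in limma 1 clone of the list was higher and 0 lower, and over all clones 10 were higher and 28 lower. The one was 9.C.10, with a mean of 1.76 (SE 0.47, n = 3 time points, adjusted p = 1 in limma). The list's median was -0.19, against -0.03 over all clones. The fit has 2 residual degrees of freedom, and positive ratios at 220 days and negative ones at 170 days enter the same mean. The p-values of all these fits measure the spread between collections, as nothing in the labels says that a time point was sampled more than once.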

How the data were processed

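The authors deposited, per the file headers, the intensity of each spot in both dyes. From the values, background had been subtracted. The scanner is not given in the sources used here, nor is the background method. Log2 ratios of mutant over wild type were computed from these intensities with limma 3.58.1 in R 4.3.3, by a global loess within each array (span 0.3, 4 iterations, control spots at weight 0). The 3 spots of a clone were averaged. The authors' deposited series table holds log2 values and their lowess table holds linear ratios, 1 per clone and time point. Both were used for comparison only.

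A 2-fold call needs a log2 ratio of at least 1 in size, with the same sign, on both arrays of a time point. Dye-swapped arrays were taken to hold the same extracts and were averaged to 1 value. Levels were quantile-normalized over the 20 channels. All fits used limma with eBayes on every clone with values, two-sided, with Benjamini-Hochberg adjustment and a threshold of 0.05. Scripts were tested on simulated data with 200 changed clones. Alternatives covered normalization, offset, low signals, fold limit, levels, time points and arrays left out, and the sign at 170 days.

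The 216 clones, the comparison lists and the tests were chosen with earlier results of these data known. Named clones are, with both arrays of the time point of the same sign, the 6 highest over 150 and 190 days and the 3 highest and 3 lowest at 120, 170 and 220 days. Further ones are those with 1 sign on all arrays, the smallest p-values, the 3 on either side of the limit, and the 3 largest and smallest changes in mean level.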

Additional observations from a re-analysis of the deposited data

Results flagged for a closer look

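The 216 clones had a median log2 ratio of mutant over wild type of -1.34 at 170 days, against 2.24 at 150 days, and 189 of them were 2-fold lower at 170 days while 2-fold higher at 150 and 190 days. They stand out because both arrays of 1 time point moved one way and both arrays of its neighbours the other way. The difference between time points was not tested, since each was taken to have 1 pair of extracts, and the ratios at 150 and 190 days chose the clones.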

How the results depend on the processing

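Of 140 alternatives over 14 results, 105 were classed as the same. That class was wide: it holds 174 to 272 clones in place of the 216, and 112 to 178 in place of the 148 rising calls. It also holds fits that stayed at 0 calls, and the single-array settings that the 216 clones pass by construction. With each array centred on its control spots Y1 to Y4, the median of all clones moved to -2.02, -0.59 and 1.09 at 120, 170 and 220 days. The list's medians were then -1.92, -1.96 and 1.83, which is 0.10, -1.37 and 0.74 relative to all clones. At 120 days 0 clones of the list were then 2-fold higher and 212 lower (98.1%, against 94.8% of all clones). At 170 days 1 was higher (0.463%, against 1.23%). At 220 days 206 were higher (95.4%, against 47.6%) and 0 lower (against 0.359%). Turning the sign of 170 days gave a median of 1.34, with 189 higher and 3 lower. At 1.5-fold, 5 were higher and 6 lower at 120 days (11.5% and 12.7% of all clones) and 105 higher at 220 days. The median at 120 days was 0.0090 with median centring, 0.0745 with loess within printing blocks, 0.0879 in the authors' deposited series table and 0.0927 with an offset of 50, and those at 170 and 220 days were -1.46 and 0.82 with median centring. Clones lower at 120 days numbered 3 with median centring, 2 with loess within blocks and 2 in the authors' deposited series table. Over all clones these counts were 269, 273 and 349. With 1 array of each pair, 2 to 4 were higher at 120 days (261 to 280 of all clones) and 5 to 6 lower (370 to 373 of all clones). Lower at 220 days were 1 to 2 (218 to 374 of all clones), and the median at 120 days was 0.0913 to 0.0943. In limma the mean level gave 0 calls without 120 days and 0 without 220 days, with 0 rising calls over all clones too. The mutant level gave 213 calls with levels set against Y1 to Y4, where 70.6% of all clones were called and their median slope was 1.98, and 159 on 120, 170 and 220 days only. The wild-type level gave 98 without 170 days, and the count over all clones is not given there. Why these counts and values moved was not tested. The mean ratio gave 0 calls in limma in each alternative run. With a replicate block on all arrays and the time point as a random block, limma called 172 clones of the list for the mean level. It called 0 for each genotype's level and 0 for the mean ratio. How many of all clones were called with these blocks is not given. The replicate number is the dye orientation, and deviations of same-numbered arrays correlated at r = 0.07 to 0.41. The number of arrays limits every value, as does the single pair of extracts assumed per time point.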
